A study of Mus musculus with 90 samples.

Results

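Clustered histone genes encode the bulk histones that package newly copied DNA. They sit in gene clusters named Hist1, Hist2, Hist3 and Hist4, and each belongs to the linker class H1 or to the core classes H2A, H2B, H3 and H4, which together form the nucleosome. Their mRNAs are known to accumulate mainly while DNA is being copied, and most end in a short stem-loop in place of a poly(A) tail. A few members are known to be made also as polyadenylated RNA in cells that have stopped dividing. Megakaryocytes, the platelet-forming cells of bone marrow, are known for copying their DNA repeatedly without dividing.

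The members were the genes of the expression table whose symbols begin with Hist1h, Hist2h, Hist3h or Hist4h, 69 of 35869 genes in all. They comprised 6 H1, 19 H2A, 19 H2B, 12 H3 and 13 H4 genes, and 2 of them are annotated as pseudogenes. By position, 55 lie in the Hist1 cluster on chromosome 13, 10 in the Hist2 cluster on chromosome 3, 3 in the Hist3 cluster on chromosome 11 and 1, Hist4h4, on chromosome 6 (GENCODE M21, GRCm38, the same assembly as the mm10 of the files).

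The series asked how mouse haematopoietic stem cells that carry the surface protein CD41 (CD41pos HSCs) differentiate with and without RUNX1, a transcription factor of blood formation. The cells came from bone marrow of mice whose Runx1 gene carries loxP sites (RUNX1f/f). KO mice were MxCre1+/-,RUNX1f/f and WT controls were MxCre1-/-,RUNX1f/f, and the Cre is driven by the interferon-inducible Mx1 promoter. Mice of both genotypes received 4 injections of polyIC and were used 4 weeks later. The sorted cells were cultured for 2 days, after which cells that looked like megakaryocytes (MK) and cells that did not (NMK) were picked and sequenced one by one. The 33 libraries used here were 5 KO MK, 6 WT MK, 13 KO NMK and 9 WT NMK cells, and every value is in TPM (a level per transcript length, scaled to the same total in each cell). The labels do not say which mouse or culture a cell came from. Each group therefore stands as 1 sample of cells, no p-value is given, and each SD measures the spread between cells.

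The libraries differed in ways that touch the histone values. Genes above 0 numbered 11896 to 14487 in KO MK cells, 14089 to 15252 in WT MK cells, 3011 to 10987 in KO NMK cells and 5475 to 11715 in WT NMK cells, so that every MK cell had more than every NMK cell. The KO MK cells B1-4 and 2 went against their label: the platelet chemokine gene Pf4 stood at 65.8 and 213.7 TPM in them, within the NMK range of 3.0 to 1453 TPM, against 13752 to 26885 TPM in KO MK cells 1B, B1-3 and 1A. The mean log2(TPM + 1) over 13 MK-platelet genes was 1.16 and 2.35 in these cells, also within the NMK range of 0.79 to 2.86. The summed TPM of these 13 genes was 116.4 to 55049 in KO MK, 13209 to 21738 in WT MK, 56.2 to 894.7 in KO NMK and 20.8 to 1510 in WT NMK cells, with Gp6 at 0 in every NMK cell. KO NMK cells B1-1b and B1-2a had low housekeeping levels (4.61 and 2.55 on the mean log2 scale, against 8.65 to 10.30 in the other NMK cells). Runx1 itself stood at 8.9 to 47.5 TPM in KO MK cells and 7.6 to 22.2 TPM in WT MK cells, and at 0 to 41.5 TPM in KO NMK cells and 0 to 15.7 TPM in WT NMK cells. Its TPM covers the whole gene, including exons outside the deleted part, and so does not check the genotype labels.

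Of the 69 members, 45 hold in their GENCODE transcripts the 16-base histone stem-loop that closes a histone mRNA, searched by name with at most 1 mismatch on the transcript strand. The form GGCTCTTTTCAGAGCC occurs in 26 members of all classes but H4, and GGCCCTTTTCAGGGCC in 7 members, all H4. The site is shown for members whose levels are described further on, with the stem-loop in capitals and 5 flanking bases on each side in lower case.
Hist1h2ao (H2A, chr13:21810893-21810918, plus strand): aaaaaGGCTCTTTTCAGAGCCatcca
Hist1h2ac (H2A, chr13:23683472-23683497, minus strand): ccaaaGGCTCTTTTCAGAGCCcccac
Hist1h2bg (H2B, chr13:23571838-23571863, plus strand): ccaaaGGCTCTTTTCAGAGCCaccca
Hist1h4d (H4, chr13:23581945-23581970, plus strand): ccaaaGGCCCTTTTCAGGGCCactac
The annotated transcript runs on beyond the stem-loop by 31 bases in Hist1h2ao, 155 in Hist1h2bg, 770 in Hist1h4d and 2010 in Hist1h2ac. The transcript model of Hist1h2bc (chr13:23684199-23692908, plus strand) has 2 exons and 1156 bases, and no stem-loop was found in it. The primer with which the library kit copies RNA is not given in the sources used here, so how completely RNA without a poly(A) tail was read is unknown.

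In 13 pairs, an H2A and an H2B gene start within 173 to 306 bases of each other on opposite strands, so that both genes of a pair share 1 promoter region. The promoter windows (250 bases before to 50 bases after the RefSeq start, GRCm38.p6) of 3 genes on which the comparisons turn are shown, with short motifs in capitals. The motifs, searched on both strands, were the CCAAT box (CCAAT), the TATA box (TATAAA) and the octamer (ATTTGCAT), and none of them is part of another. Capitals mark a match on either strand. The first window belongs to Hist1h2ac and reaches the start of Hist1h2bc, the second belongs to Hist1h2bg and reaches the start of Hist1h2ae, and the third belongs to Hist1h4d, the member closest to Top2a.
Hist1h2ac (chr13:23683910-23684209, minus strand): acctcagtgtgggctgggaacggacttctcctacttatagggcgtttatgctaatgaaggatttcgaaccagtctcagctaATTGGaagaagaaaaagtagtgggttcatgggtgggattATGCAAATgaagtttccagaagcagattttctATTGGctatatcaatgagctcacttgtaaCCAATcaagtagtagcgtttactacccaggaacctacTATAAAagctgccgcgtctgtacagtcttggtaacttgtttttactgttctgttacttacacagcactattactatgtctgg
Hist1h2bg (chr13:23571150-23571449, plus strand): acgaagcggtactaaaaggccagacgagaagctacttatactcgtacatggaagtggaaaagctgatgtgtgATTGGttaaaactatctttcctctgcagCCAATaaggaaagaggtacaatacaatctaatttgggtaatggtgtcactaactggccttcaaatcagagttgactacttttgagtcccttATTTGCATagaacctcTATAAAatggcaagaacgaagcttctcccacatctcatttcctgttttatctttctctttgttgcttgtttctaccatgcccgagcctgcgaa
Hist1h4d (chr13:23581318-23581617, plus strand): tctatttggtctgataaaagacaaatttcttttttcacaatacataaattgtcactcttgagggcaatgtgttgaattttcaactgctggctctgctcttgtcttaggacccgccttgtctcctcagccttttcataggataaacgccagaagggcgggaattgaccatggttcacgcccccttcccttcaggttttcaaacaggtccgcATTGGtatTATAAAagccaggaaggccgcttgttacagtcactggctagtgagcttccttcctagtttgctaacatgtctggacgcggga
Among the 61 members with a RefSeq promoter, the CCAAT box was found in all 17 H2A, all 16 H2B, all 10 H3 and all 6 H1 windows but in 3 of 12 H4 windows, against 37.9% of 27025 promoters of the same length. The octamer was found in 7 of 17 H2A and 6 of 16 H2B windows and in no H1, H3 or H4 window, against 1.75% of all promoters. Neighbouring H2A and H2B windows overlap, so these counts are not independent. A match is a run of letters and not a measured binding site.

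Near-identical copies limit the values of single genes. The share of a member's 50-base stretches that also occur in another member had a median of 67.6% among H2A genes, 57.2% among H3, 40.1% among H2B, 39.5% among H4 and 1.1% among H1. For Hist1h2bc the share was 29.4%, for Hist1h2ac 11.6%, for Hist1h4d 10.2% and for Hist1h1b 0%. How reads that match several copies were counted is not given in the sources used here, so sums over a class are firmer than single members of it. Hist1h2be lies over Hist1h1e on the same strand, so their reads cannot be fully separated.

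H2A transcripts were the most abundant class by median in every group, and their level was lower in KO MK cells. Summed H2A TPM was 961, 222, 363, 456 and 643 in KO MK cells 1B, B1-3, B1-4, 2 and 1A, against a lowest value of 709, a median of 3726 and a highest of 9748 TPM in the 13 KO NMK cells. In all, 4 of the 5 KO MK cells lay below every KO NMK cell. The difference in mean log2(TPM + 1) was -2.70 with a pooled SD between cells of 1.02. In WT cells the H2A sum ran from 194 over a median of 4176 to 8394 TPM in MK cells and from 94.3 over 1200 to 27668 TPM in NMK cells, and the difference of 0.73 was smaller than its SD of 2.40. Between genotypes, the H2A sum of KO MK cells was lower than that of WT MK cells by a log2 difference of -2.26 (SD 1.70), with overlapping ranges. That difference was -1.42 (SD 1.84) among cells whose titles carry no prefix, so it did not exceed the spread in this larger subset. It was -4.75 among the 2 KO and 1 WT cells with the prefix B1, where 1 WT cell gives no spread. KO NMK and WT NMK cells differed by 1.17, less than the SD of 1.80.

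H2B transcripts ran the other way. Their sum was 172, 114, 292, 853 and 1639 TPM in the 5 KO MK cells in the same order, against 0 to 180 TPM with a median of 22.6 TPM in KO NMK cells. It was 106 to 503 TPM with a median of 369 TPM in WT MK cells, against 0 to 284 TPM with a median of 33.9 TPM in WT NMK cells. In all, 3 of 5 KO MK cells and 4 of 6 WT MK cells lay above every NMK cell of their genotype. The log2 differences were 5.23 (SD 2.59) in KO and 3.73 (SD 2.40) in WT cells. KO MK and WT MK cells differed by 0.36, less than the SD of 1.25.

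Since every MK cell had more genes above 0 than every NMK cell, the H2B sums were also compared with the NMK cells richest in genes. Against the 5 KO NMK cells with at least 10000 genes above 0, the KO difference of the H2B sum was 5.04 (SD 1.97). Against the 2 such WT NMK cells, 3 and 2B, it was 1.32 (SD 0.92) in WT cells. The 5 KO NMK cells held 0.8 to 46.9 TPM of H2B transcripts and the 2 WT NMK cells 68.2 and 202.7 TPM. Without the KO MK cells B1-4 and 2, the KO differences were 4.97 (SD 2.75) for H2B and -2.56 (SD 1.08) for H2A.

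The remaining classes varied mostly within the spread between cells. H4 sums were lower in KO MK cells, at 30.7 to 123.6 TPM with a median of 54.0 TPM, than in WT MK cells, at 64.5 to 341.0 TPM with a median of 173.1 TPM (difference -1.31, SD 0.92). Among cells without a title prefix this difference was -0.89 (SD 1.02). H1 sums had medians of 73.7 TPM in KO MK, 182.5 TPM in WT MK, 329.4 TPM in KO NMK and 117.8 TPM in WT NMK cells, and H3 sums medians of 19.4, 13.3, 27.5 and 0.5 TPM in the same order of groups. No H1 or H3 difference exceeded its SD in any of the 4 comparisons with all 33 cells. Without the KO NMK cells B1-1b and B1-2a, the KO MK minus KO NMK difference was -2.63 (SD 2.27) for H1 and -2.66 (SD 1.0) for H4, both past the spread, against -2.07 (SD 2.85) and -1.57 (SD 2.54) with them. With NMK cells of at least 10000 genes above 0, it was -3.13 (SD 2.19) for H1, the WT MK minus WT NMK difference of H3 was 3.53 (SD 0.89), and the KO NMK minus WT NMK difference was 2.37 (SD 1.27) for H1 and 3.28 (SD 2.07) for H3. H3 was the least abundant class by median in KO MK, WT MK and WT NMK cells, and H2B in KO NMK cells.

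**Figure D1:**
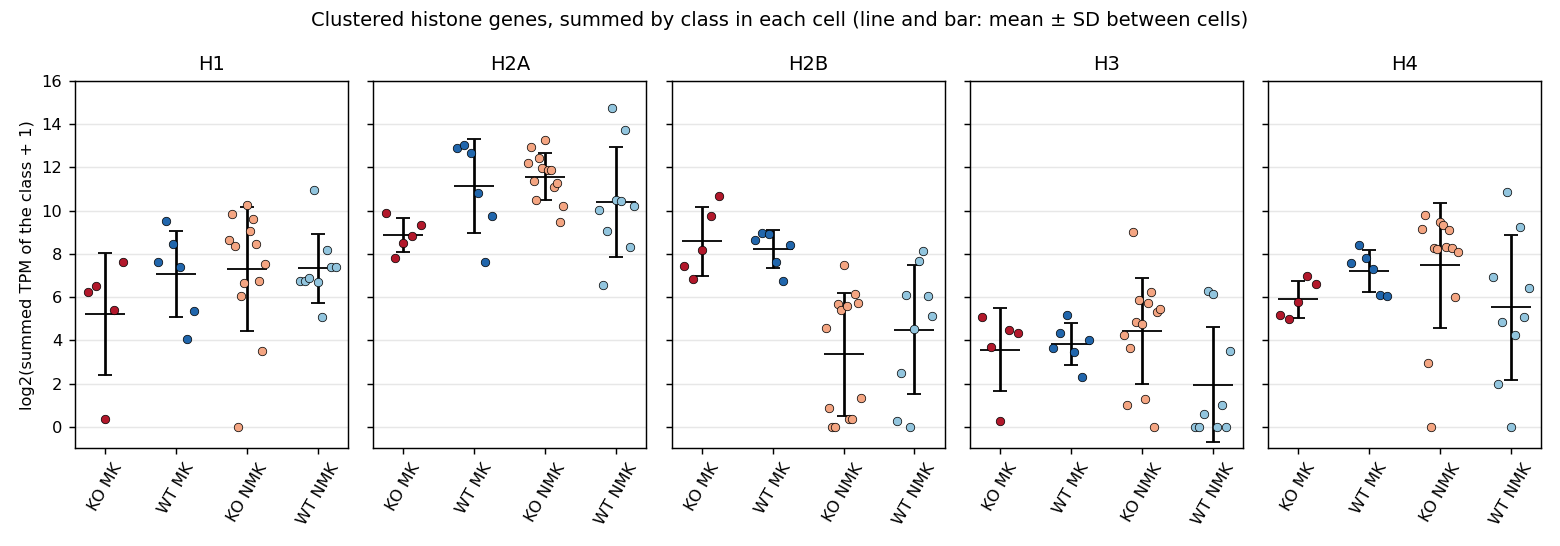
Summed TPM of each histone class in every cell on the log2(TPM + 1) scale, by group (KO MK, WT MK, KO NMK and WT NMK from left to right); points are cells, and the line and bar give the mean and SD between cells. H2A sums of KO MK cells (222 to 961 TPM) lie below most other cells, and H2B sums of MK cells of both genotypes (106 to 1639 TPM) lie above most NMK cells (0 to 284 TPM).

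The balance between H2A and H2B transcripts differed between groups. The ratio of the H2A sum to the H2B sum had a median of 1.24 in KO MK cells (0.39 to 5.59), 11.4 in WT MK cells (1.84 to 19.5), 111.5 in the 11 KO NMK cells with any H2B (13.8 to 12419) and 27.9 in the 8 WT NMK cells with any H2B (4.83 to 5205). The KO MK range lay below the KO NMK range.

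Top2a, the topoisomerase that untangles chromosomes before they separate, served as the marker of cycling cells. It stood at 3.6, 40.3, 34.0, 15.6 and 1.0 TPM in the 5 KO MK cells, at 3.3 to 43.7 TPM with a median of 19.9 TPM in WT MK cells, at 0 to 180.9 TPM with a median of 111.7 TPM in KO NMK cells and at 0 to 175.0 TPM with a median of 8.0 TPM in WT NMK cells. A member was said to follow Top2a when Pearson's r of their log2(TPM + 1) values across the 33 cells was at least 0.5. Only members with at least 1 TPM in 5 cells were rated, which left 64 of 69. The cells share groups, libraries and detection limits, so each r is a description.

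Of the 64 rated members, 18 (28.1%) followed Top2a, against 5.61% of the 11868 genes rated in the same way. They were 11 of 18 H2A genes, 6 of 13 H4 genes and 1 of 5 H1 genes, and none of 17 H2B or 11 H3 genes. The highest r were 0.79 for Hist1h4d, 0.72 for Hist1h2ab and 0.71 for Hist1h2ad, and the lowest were -0.30 for Hist1h2be, -0.25 for Hist1h2bp and -0.24 for Hist1h2bc. Median r was 0.56 for H2A, 0.50 for H4, 0.28 for H1, 0.14 for H3 and -0.07 for H2B genes, against 0.13 for all genes. Of the 17 H2B genes, 14 had an r below 0. The limit cuts through the H4 genes: just inside it lay Hist1h4f (r = 0.52), Hist1h4j (0.52) and Hist1h4b (0.53), and just outside it Hist1h4h (0.498), Hist1h4k (0.49) and the H2A gene Hist1h2ao (0.44). Hist1h2ao is nearly the same gene as Hist1h2ap (r = 0.58), so the limit parts near-identical copies here.

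**Figure D2:**
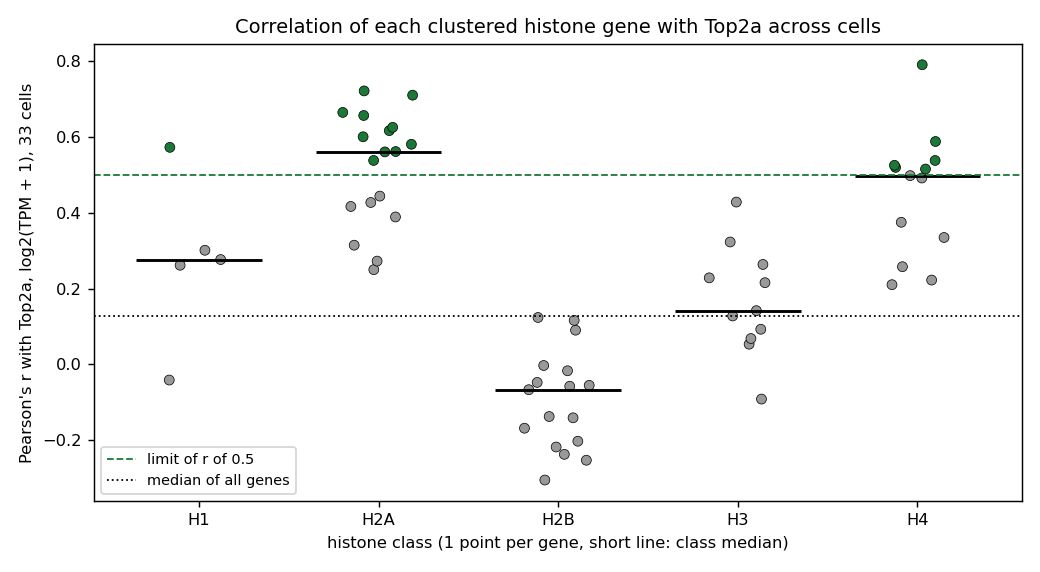
Pearson's r of each rated histone gene with Top2a across 33 cells, by class; each point is a gene, green points have an r of at least 0.5, short lines are class medians and the dotted line is the median of all genes (0.13). H2A and H4 genes reach the limit, and every H2B gene lies between -0.30 and 0.12.

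Within the 22 NMK cells the same split was seen. There 13 H2A, 9 H4, 1 H1 and 1 H3 gene had an r of at least 0.5 with Top2a, and no H2B gene did. These were 24 of the 64 rated members, against 11.2% of all genes. At least 1 TPM in 5 NMK cells was reached by 51 members. Every rated H2B gene had a median below 1 TPM in KO NMK and in WT NMK cells, so low levels limit what its r can show here. Hist1h4d reached 0.91 and Hist1h2ab 0.83. Within the 11 MK cells r was lower, at 0.05 for Hist1h4d and 0.20 for Hist1h2ab, and the median over all rated members was -0.17, against 0.12 over all genes. Ranking the cells instead (Spearman's rho) left 15 members. Following the mean of 28 DNA replication genes in place of Top2a left 9 of 64 members, 7 H2A and 2 H4. This share did not exceed the 15.6% of all genes. The median r of the members with that mean was 0.25, against 0.22 over all genes. No H2B gene followed under any of the settings tried.

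Per cell, the mean log2(TPM + 1) of the 18 members that follow Top2a was 2.28 to 3.0 in KO MK cells, 2.6 to 6.09 in WT MK cells, 0 to 6.52 in KO NMK cells and 0.81 to 7.44 in WT NMK cells. The value of 0 belongs to the KO NMK cell B1-2a, in which 3 members reached 1 TPM. The mean of the 46 rated members that do not follow spanned 1.18 to 3.07 in KO MK, 1.26 to 2.91 in WT MK, 0.41 to 2.76 in KO NMK and 0.48 to 2.21 in WT NMK cells. The non-histone genes most like the first mean across cells, of 5474 with a mean of at least 10 TPM, were Mki67 (r = 0.76), Top2a (0.73), 2810417H13Rik (0.72), Esco2 (0.72), Srrm1 (0.71), Pbk (0.71), Tyms (0.70) and Tk1 (0.70). The 18 members were chosen by their r with Top2a in these same cells, so that Top2a and genes that vary with it rank high is set by that choice. Mki67 is the Ki-67 marker of cycling cells, and Tyms and Tk1 make thymidylate for DNA.

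Hist1h2bc, an H2B gene, was the largest single difference among the members. It stood at 114.6, 79.2, 236.7, 679.8 and 1252.8 TPM in KO MK cells 1B, B1-3, B1-4, 2 and 1A and at 73.3 to 381.2 TPM with a median of 297.7 TPM in WT MK cells. In KO NMK cells it was listed at 0 in 8 of 13 and reached at most 33 TPM, and in WT NMK cells it was listed at 0 in 6 of 9 and reached at most 64.6 TPM. Every MK cell of both genotypes lay above every NMK cell, including the KO MK cells B1-4 and 2 with little Pf4. Every MK cell also had more genes above 0 than every NMK cell, and the share of all genes so separated is not given here. The difference in mean log2(TPM + 1) was 7.05 (SD 1.91) in KO and 5.86 (SD 2.38) in WT cells, and without the KO MK cells B1-4 and 2 it was 6.71 (SD 2.01) in KO cells. With all labelled libraries of the full table the WT difference was 2.80 (SD 3.30), no longer past the spread. KO MK and WT MK cells differed by 0.33 (SD 1.32).

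Cells with at least 1 TPM of Hist1h2bc made up 5 of 5 KO MK cells (exact 95% interval 47.8 to 100%), 6 of 6 WT MK cells (54.1 to 100%), 3 of 13 KO NMK cells (5.0 to 53.8%) and 3 of 9 in the WT NMK group (7.5 to 70.1%). Such intervals reflect only how many cells were counted. Hist1h2bc made up 66.7 to 81.1% of all H2B TPM in each MK cell. Its r with the number of genes above 0 was 0.75 over all cells and -0.41 within MK cells. Among NMK cells with at least 10000 genes above 0, the 5 KO cells held 0.4, 0, 33, 15.8 and 0 TPM of it, the last in KO NMK cell 5B with 10987 genes, and the 2 WT cells, 3 and 2B, held 57.3 and 53.9 TPM. Against NMK cells with at least 10000 genes above 0, the difference was 6.23 (SD 2.10) in KO and 2.01 (SD 0.86) in WT cells.

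Hist1h2bg and Hist1h2bf, further H2B genes of the Hist1 cluster, varied with it across all cells (r = 0.94 and 0.91 with Hist1h2bc). Hist1h2bg stood at 24.1, 10.1, 22.3, 77.2 and 144.9 TPM in KO MK cells and at 8.2 to 44.6 TPM in WT MK cells, against at most 11 TPM in KO NMK and 5.7 TPM in WT NMK cells. Hist1h2bf stood at 4.2, 3.0, 11.5, 32.0 and 43.3 TPM in KO MK cells and at 1.7 to 17.6 TPM in WT MK cells, against at most 4.4 TPM in KO NMK and 4.1 TPM in WT NMK cells. In all 3 genes KO MK cell 1A was highest and KO MK cell B1-3 lowest among KO MK cells. Hist1h2bg shares 49.7% and Hist1h2bf 65.8% of their 50-base stretches with other members, so the values of both are uncertain.

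The H2B genes with the lowest r with Top2a were scarce. Hist1h2be stood at 0.3 to 8.3 TPM in KO MK, 0.3 to 2.2 TPM in WT MK, 0 to 0.3 TPM in KO NMK and 0 to 1.1 TPM in WT NMK cells. Hist1h2bp stood at 0.5 to 4.0 TPM in KO MK, 0.4 to 1.3 TPM in WT MK, 0 to 1.1 TPM in KO NMK and 0 to 15.5 TPM in WT NMK cells. These levels are near the 0.1 TPM step of the table, and the r values rest on small differences.

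The non-histone genes most like Hist1h2bc across the 33 cells were I830077J02Rik (r = 0.84), Gm42067 (0.83), Mrps22 (0.81), Cst7 (0.80), Gm5547 (0.77), Grsf1 (0.77), Prorsd1 (0.77) and Rab27b (0.75). Rab27b encodes a small GTPase of platelet granule traffic and Mrps22 a mitochondrial ribosomal protein. The median of I830077J02Rik was 84.5 TPM in KO MK and 43.9 TPM in WT MK cells, and it was listed at 0 in KO NMK and WT NMK cells by median. All of them were chosen by likeness over cells that fall into an MK and an NMK set, so any gene of that pattern would appear.

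Hist1h2ac, the H2A gene that shares its promoter region with Hist1h2bc, behaved like the other H2A genes. It stood at 30.1, 6.2, 7.3, 13.7 and 19.3 TPM in KO MK cells and at 6.3 to 289.6 TPM with a median of 143.4 TPM in WT MK cells. In KO NMK cells it spanned 0 to 348.2 TPM with a median of 121.5 TPM, and in WT NMK cells 0 to 740.7 TPM with a median of 24.4 TPM. Its r with Top2a was 0.66, and its r with Hist1h2bc was -0.11 over all cells. The ratio of Hist1h2bc to Hist1h2ac had a median of 32.4 in KO MK cells, 2.09 in WT MK cells and 0 in the NMK cells of each genotype.

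**Figure D3:**
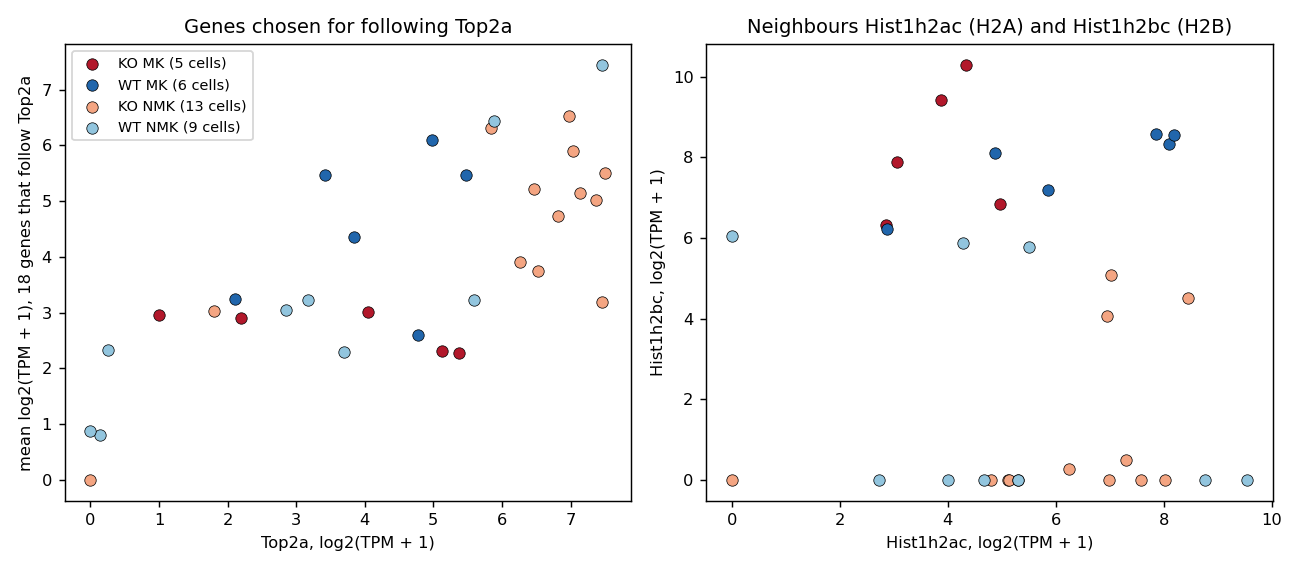
Each point is a cell, coloured by group. Left, the mean log2(TPM + 1) of the 18 members chosen for following Top2a against Top2a; right, Hist1h2bc against its neighbour Hist1h2ac, where all 11 MK cells lie above every NMK cell in Hist1h2bc but not in Hist1h2ac.

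In r with Top2a, the same divide ran through the other shared promoter regions. In 12 of the 13 pairs both genes were rated, and in all 12 the H2A gene had the higher r with Top2a (0.31 to 0.71 for H2A, -0.25 to 0.12 for H2B). Of these H2A genes 8 followed Top2a, and none of their H2B partners did. The r between the genes of a pair was -0.11 to 0.28. In KO cells, the H2A gene was lower and the H2B gene higher in MK than in NMK cells by mean log2 value in 12 of 12 pairs. H2A differences lay between -3.07 (Hist1h2ae) and -0.51 (Hist1h2aa), and H2B differences between 0.80 (Hist2h2be) and 7.05 (Hist1h2bc). Several of these H2B genes were near 0. Medians in KO MK and KO NMK cells were 0.2 and 0.2 TPM for Hist2h2be, 0.7 and 0 TPM for Hist1h2bp and 0.6 and 0.1 TPM for Hist1h2br. The share of all genes with a difference above 0 is not given. In WT cells, the H2B gene was higher in MK cells in 10 of 12 pairs, but the H2A gene was lower in only 1 of 12. By mean log2 value, the divide between MK and NMK cells was thus seen in KO and not in WT cells. The WT side was not stable: the H2A sum differed by 0.73 (SD 2.40) by mean log2 value but by -0.31 by the ratio of mean TPM. That ratio gave -2.86 in KO cells. Median Top2a also differed between KO NMK (111.7 TPM) and WT NMK cells (8.0 TPM). Over all genes that passed the level filter, the median difference was 0.59 in KO and 0.70 in WT cells. Copies within a class resemble each other, so the 12 pairs are not 12 independent cases.

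**Figure D4:**
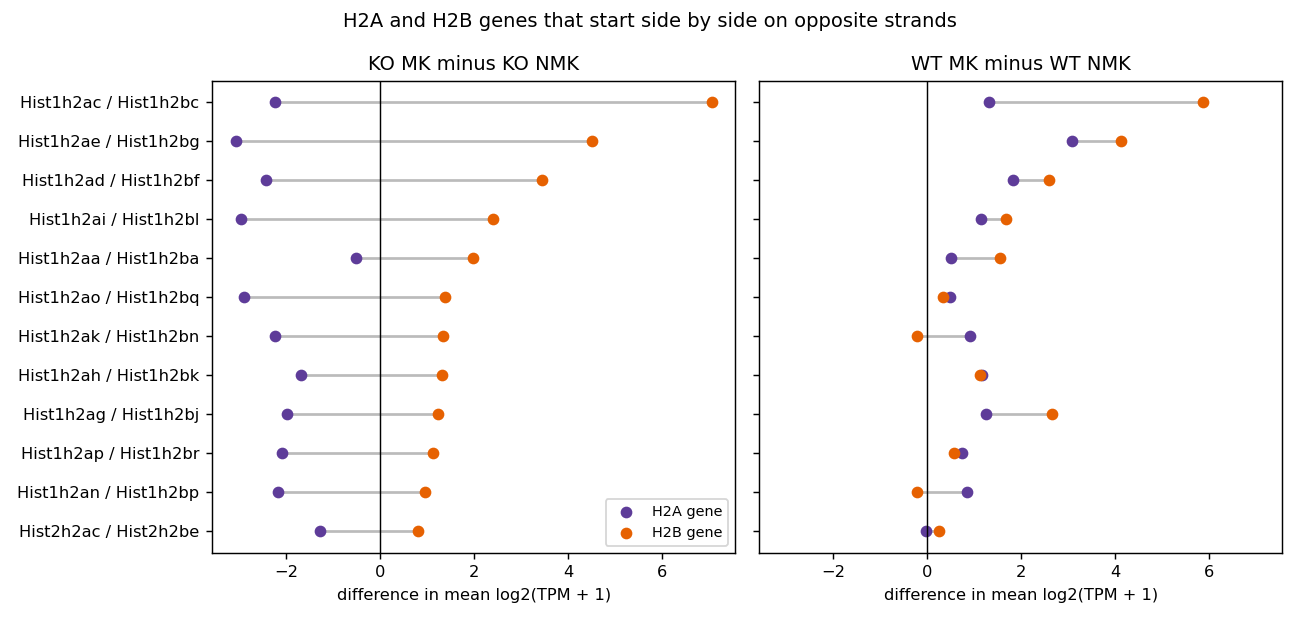
Differences in mean log2(TPM + 1) of MK minus NMK cells in KO (left) and WT (right) for 12 pairs of H2A and H2B genes that start side by side; each row is a pair. In KO cells every H2A point lies below 0 and every H2B point above 0. In WT cells 1 of 12 H2A points lies below 0 and 10 of 12 H2B points lie above 0.

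Across all members, a gene was called different when its difference in mean log2(TPM + 1) was at least 1 and larger than the pooled SD, among genes with a mean of at least 1 TPM in a group of the comparison. Between KO MK and KO NMK cells, 65 members passed that level filter. Of these, 13 were lower (20%, against 0.614% of all 13365 genes) and 13 higher (20%, against 13.3%). Without the KO MK cells B1-4 and 2 the counts were 8 lower and 17 higher, and without KO MK cell 1A 8 were higher. The shares over all genes in these sets of cells are not given, so these counts cannot be set against 0.614% and 13.3%. The 13 lower members were 10 H2A genes, Hist1h1b, Hist1h1e and Hist1h4d. The 13 higher members were 12 of 17 H2B genes and the H2A gene Hist3h2a. The median difference was -2.09 over the H2A and 1.31 over the H2B genes, against 0.59 over all genes that passed. Without the KO MK cells B1-4 and 2, Hist1h2ae (-2.18, SD 2.51), Hist1h4d (-2.60, SD 3.0) and Hist1h1e (-2.35, SD 3.09) were no longer called.

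Between WT MK and WT NMK cells, 13 of 60 members were higher (21.7%), which is near the 25.6% of all 11562 genes, and none was lower (3.33% of all genes). The 13 were 7 H2B genes, the H4 genes Hist1h4i, Hist1h4n, Hist1h4m and Hist4h4, and the H3 genes Hist1h3d and Hist1h3g. H2B genes made up 7 of 17 (41.2%) and H2A genes 0 of 18. The median difference of the H2A genes was 0.77, against 0.70 over all genes. The count of higher members was 21 without WT NMK cell 1A, which held the most histone transcripts of any cell at 31634 TPM. The share over all genes without that cell is not given, so the 21 cannot be set against the 25.6%.

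Between KO MK and WT MK cells, 19 of 60 members were lower (31.7%, against 7.07% of all 11796 genes) and 1 was higher (against 9.74%), namely Hist3h2a. The 19 comprised 13 of 17 H2A genes, Hist1h1a, Hist1h1b, Hist1h1e, Hist1h3d, Hist1h4d and Hist4h4, and no H2B gene. The largest were Hist1h1b at -3.72 (SD 2.18), Hist1h2ae at -3.63 (SD 1.84), Hist1h4d at -3.01 (SD 1.74) and Hist1h1e at -2.86 (SD 2.13). Hist1h2ak was the one member whose ranges did not overlap, at 1.1 to 2.3 TPM in KO MK and 2.7 to 45.7 TPM in WT MK cells. The share of all genes without overlap between these groups is not given here. The count of lower members was 8 among KO MK and WT MK libraries without a title prefix, and 2 with every labelled KO MK and WT MK library of the full table. Without the KO MK cells B1-4 and 2, 15 members were lower and 4 higher. For these other sets of cells the shares over all genes are not given, so the counts cannot be set against 7.07% and 9.74%.

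Between KO NMK and WT NMK cells, 4 of 59 members were higher (6.78%, against 2.52% of all 12835 genes) and none was lower (2.19% of all genes). All 4 were H4 genes: Hist1h4i (difference 3.05, SD 2.45), Hist1h4m, Hist1h4n and Hist1h4b (1.11, SD 1.02). Hist1h4m and Hist1h4n were listed at 0 in all 9 WT NMK cells, and reached 35.7 and 28.5 TPM in KO NMK cells. They share 89.8% and 85.6% of their 50-base stretches with other members, so they may not be separate cases. Hist1h4b reached at most 6.6 TPM in KO NMK cells. The count was 10 without WT NMK cell 1A and 7 without WT NMK cell 3A. Among NMK cells with at least 10000 genes above 0, 5 KO and 2 WT, it was 30. The share over all genes in these sets of cells is not given, so these counts cannot be set against the 2.52%.

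**Figure D5:**
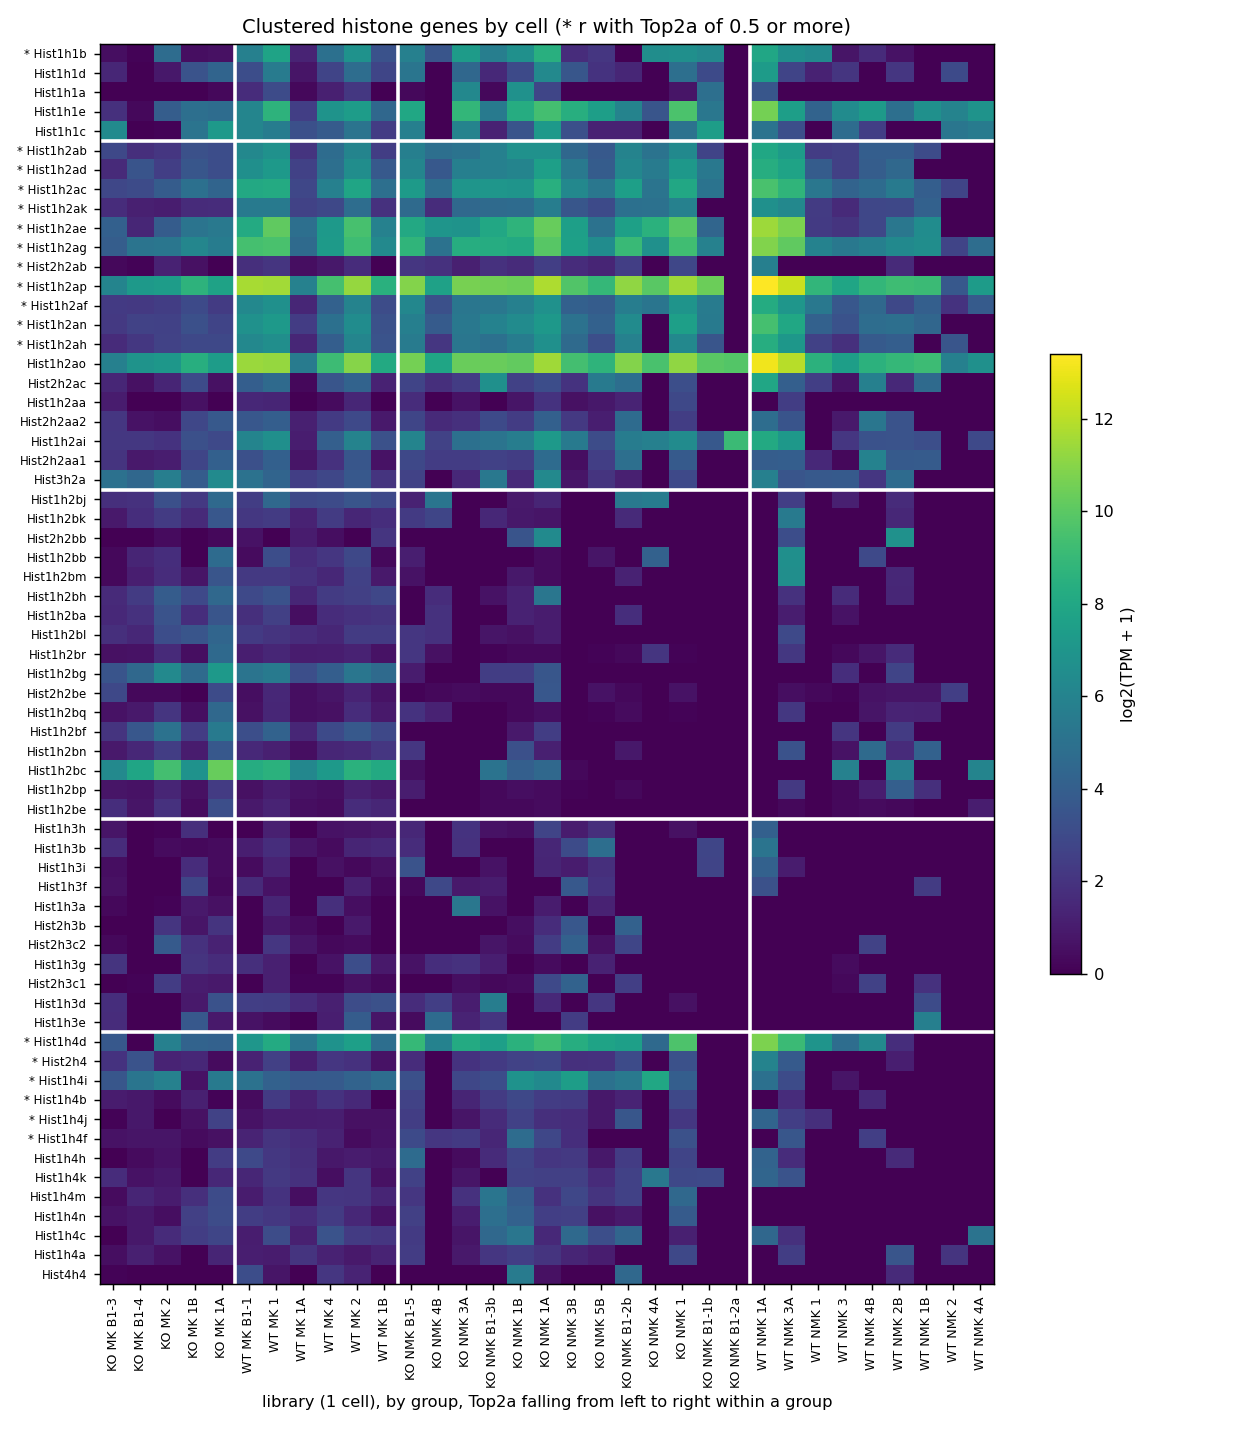
log2(TPM + 1) of the 64 rated members (rows, by class and falling r with Top2a, those that follow marked by a star) in the 33 cells (columns, by group and falling Top2a). Most H2A rows are dimmer in KO MK cells (H2A sums of 222 to 961 TPM) than in KO NMK cells. Hist2h2aa1 and Hist2h2aa2 differ little between these groups (-0.07 and -0.05), and Hist3h2a is brighter in KO MK cells. The Hist1h2bc row is bright in all MK cells, and WT NMK cells 1A and 3A carry the brightest H2A rows.

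Among H2A genes, Hist1h2ao and Hist1h2ap carried most of the signal, with a joint share of 54.4 to 89.8% of H2A TPM in every cell. Hist1h2ap stood at 401.1, 65.4, 148.8, 170.9 and 213.0 TPM in KO MK cells and at 58.9 to 3155 TPM with a median of 1587 TPM in WT MK cells. In KO NMK cells its median was 1389 TPM and in WT NMK cells 463.3 TPM. The ratio of Hist1h2ap to Hist1h2ao had a median of 1.21 to 1.25 in every group, and it was 1.18 to 1.29 in all MK cells. Hist1h2ae stood at 34.2, 16.5, 1.7, 14.1 and 42.3 TPM in KO MK cells and at 29.2 to 1124 TPM in WT MK cells. Its median was 193.6 TPM in KO NMK cells and 6.1 TPM in WT NMK cells. Hist1h2ad and Hist1h2ab, which follow Top2a most closely among H2A genes, had KO MK ranges of 2.0 to 10.8 TPM and 2.5 to 8.9 TPM, against KO NMK medians of 53.7 and 33.4 TPM.

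Hist3h2a was the only H2A gene called higher in KO MK cells. It lies outside the Hist1 cluster, on chromosome 11 (chr11:58954685-58956830, plus strand), and shares 2.0% of its 50-base stretches with other members. It stood at 14.0, 30.5, 21.6, 51.7 and 83.5 TPM in KO MK cells, against 3.1 to 31.6 TPM with a median of 9.1 TPM in WT MK cells (difference 1.69, SD 1.07). In KO NMK cells it was 0 to 79.0 TPM with a median of 1.9 TPM (KO MK minus KO NMK 3.22, SD 1.83). Its r with Top2a was 0.25 and with Hist1h2bc 0.59, the highest of any member outside the H2B class.

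Of the 5 rated linker histone genes, 1 followed Top2a, and none was called higher in MK cells of either genotype. Hist1h1b, which encodes histone H1.5 and follows Top2a (r = 0.57), stood at 0.4, 0.4, 0.1, 25.7 and 0.5 TPM in KO MK cells. It was at least 1 TPM in all 6 WT MK cells (1.5 to 218.3 TPM, median 43.1 TPM), in 11 of 13 KO NMK cells (median 56.6 TPM) and in 4 of 9 WT NMK cells (median 0.7 TPM). KO MK cell 2 thus stood apart from the other 4. Hist1h1e, which encodes H1.4, stood at 28.7, 2.6, 0.2, 14.7 and 25.5 TPM in KO MK cells. It ranged from 4.6 to 405.3 TPM in WT MK, from 0 to 766.4 TPM in KO NMK and from 18.4 to 1567 TPM in WT NMK cells, with an r of 0.26. Hist1h1c, which encodes H1.2, did not follow Top2a (r = -0.04) and was not called between KO MK and KO NMK cells (0.57, SD 2.99). It stood at 35.0, 85.2, 0, 0.1 and 151.5 TPM in KO MK cells, the near-absent values being those of the cells B1-4 and 2, and its r with the MK-platelet mean was 0.86 within the 11 MK cells. It made up 67.6% of H1 TPM in KO MK cells, whereas Hist1h1e led in WT MK (52.5%), KO NMK (61.9%) and WT NMK cells (74.8%).

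Among H4 genes, Hist1h4d led in WT MK, KO NMK and WT NMK cells, with 71.6 to 89.5% of H4 TPM. It stood at 18.4, 11.7, 0, 56.5 and 17.1 TPM in KO MK cells, against 27.5 to 288.2 TPM with a median of 120.5 TPM in WT MK cells. Its median was 220.3 TPM in KO NMK and 26.9 TPM in WT NMK cells. Hist1h4i led in KO MK cells with 44.5% of H4 TPM, at 0.6, 10.8, 36.5, 59.1 and 43.8 TPM, against 12.2 to 31.8 TPM in WT MK cells. It was listed at 0 in 6 of 9 WT NMK cells and in 3 of 13 KO NMK cells. Hist1h4c stayed at or below 37.8 TPM in every cell. Among H3 genes, Hist1h3d, Hist1h3e and Hist1h3c reached at most 54.9 TPM except for 514.6 TPM of Hist1h3c in the KO NMK cell B1-2a, one of the cells with a low housekeeping level, and Hist1h3c was not rated since 4 cells reached 1 TPM.

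Lists of other genes, 5 in all, give the setting. Of 28 DNA replication genes, 16 followed Top2a (median r 0.53), and of 19 rated mitosis genes 18 did (0.69), against a median of 0.13 over all genes. Of 16 histone chaperones 8 followed (0.47), of 11 replication-independent histones 4 (0.46), and of 18 rated genes of histone expression and processing 3 (0.26). Between KO MK and KO NMK cells, 2 replication genes were lower, Uhrf1 (-1.45, SD 1.40) and Prim1 (-1.43, SD 1.06), and 2 of 20 mitosis genes, Top2a (-2.39, SD 2.22) and Mki67 (-2.02, SD 1.64), against 0.614% of all genes. Npat, the coactivator of clustered histone genes, was the one processing gene called in that comparison. It was higher, at a median of 9.2 TPM in KO MK and 0 TPM in KO NMK cells (2.02, SD 1.58). This was 1 of 17 processing genes, against 13.3% of all genes called higher, so the count does not exceed the share over all genes.

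Between KO MK and WT MK cells, 6 of 28 replication genes, 4 of 17 processing genes and 3 of 16 chaperones were lower, against 7.07% of all genes, and none was higher, against 9.74%. Ccne1 and Ccne2, the cyclins E that start DNA copying, had medians of 0 and 2.3 TPM in KO MK cells against 33.7 and 28.7 TPM in WT MK cells (differences -3.29, SD 2.45, and -2.08, SD 1.75). Casp8ap2, which is needed for histone gene expression, had medians of 3.9 TPM in KO MK and 9.8 TPM in WT MK cells (-1.45, SD 0.98). The chaperones Npm1, Nasp and Nap1l1 had medians of 487.4, 20.7 and 42.6 TPM in KO MK cells against 1315, 57.3 and 113.0 TPM in WT MK cells. Npm1 differed by -1.50 (SD 0.55) and Nap1l1 by -1.24 (SD 0.39), and the ranges of Nap1l1 did not overlap (29.5 to 72.8 TPM in KO MK, 85.2 to 132.0 TPM in WT MK). How large a share of all genes was separated in this way between these groups is not given. No replication-independent histone was called between these groups, and their median difference was 0.08, against 0.09 over all genes.

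Between WT MK and WT NMK cells, 7 of 28 replication genes, 7 of 20 mitosis genes and 8 of 17 processing genes were higher and 1 processing gene was lower, against 25.6% of all genes higher and 3.33% lower. The replication count of 7 of 28 is thus near the share over all genes. The largest difference among the called genes of these 3 lists was that of Ccnb2, at a median of 398.6 TPM in WT MK against 1.8 TPM in WT NMK cells (4.39, SD 3.45). Of 16 chaperones, Npm1 was higher (1.17, SD 0.54), and of 10 replication-independent histones, H2afv was lower (-1.91, SD 1.21). Between KO NMK and WT NMK cells, 5 of 20 mitosis genes were higher, against 2.52% of all genes, among them Kif11 (3.58, SD 2.68), Top2a (2.71, SD 2.49) and Mki67 (2.44, SD 1.94). Fen1 of the replication list, Ccna2 of the processing list and the linker histone H1fx were also higher, and Lsm10 was lower (-2.34, SD 2.01). Top2a, by which the members were sorted, thus differed between the groups itself.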

How the data were processed

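Single picked cells were sequenced with a SMART-Seq kit, per the labels' protocols. The submitters' processing notes name FastQC 0.11.7, cutadapt 1.9.1, STAR 2.6.1e, featureCounts 1.6.2 and the build mm10. Not given in the sources used here were the annotation, the strand setting, the treatment of multiply matched reads and how outliers were picked. The authors deposited TPM values, rounded to 1 decimal, in 2 tables: 46 labelled libraries, and the 33 without outliers analysed here, with identical values. The labels list 90 samples, of which 44 are not analysed here. 1 column of the larger table fitted no sample and was not used. TPM keeps no depth, so depth is unknown and no counting interval for a level is given.

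From the deposited TPM, log2(TPM + 1) was computed, with differences of group means, pooled SDs and Pearson's r (Python 3.11.15, numpy 2.4.6, pandas 2.3.3, scipy 1.17.1), after a test on simulated data. The lists, the members and their rules were chosen with earlier results of these data known. Named members were the 3 of each class with the highest mean TPM in any group, Hist1h2bc, Hist1h1b and Hist1h1e, the 3 highest and 3 lowest in r with Top2a, and up to 8 called members per direction and comparison. Hist3h2a, Hist1h2ac, Hist1h2ak and further called or neighbouring members were described after their values were seen. Leaving out KO MK cells with little Pf4, and NMK cells with fewer than 10000 genes above 0, was chosen after seeing the data. Positions and transcripts came from GENCODE M21 (69 members matched), promoters from RefSeq on GRCm38.p6 (61 matched). Replicate labels name cells and pair none.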

Additional observations from a re-analysis of the deposited data

Results flagged for a closer look

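H4 sums differed in sign between the genotypes, with neither difference larger than its SD: every KO MK cell lay below the KO NMK mean (difference -1.57, SD 2.54) and every WT MK cell above the WT NMK mean (1.69, SD 2.70). The same signs were seen for Hist1h2ae (-3.07 in KO, and 3.08 with an SD of 3.58 in WT) and Hist1h4d (-3.05 in KO, and 2.20 with an SD of 3.35 in WT). The WT sign was not stable: by the ratio of mean TPM it was negative for the H4 sum (-0.82), Hist1h2ae (-0.38) and Hist1h4d (-1.08), and for Hist1h4d also with all labelled libraries (-0.36). The difference between the genotypes was not tested, and KO NMK and WT NMK cells themselves differed in Top2a.

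Some cells stood far from the rest of their group. In KO MK cells, the H3 sum of B1-4 was 0.2 TPM, against 12.1 to 32.6 TPM in the others, and Hist1h1b was 25.7 TPM in cell 2, against 0.1 to 0.5 TPM. Hist1h3e was 13.7 TPM in WT MK cell 2, against 0 to 1.2 TPM. In WT NMK cell 1B, Hist1h3e was 54.9 TPM and Hist1h3d 7.3 TPM, both listed at 0 in the other 8 cells. Hist1h2be was 1.1 TPM in WT NMK cell 4A, against 0 to 0.3 TPM. Of 72 sets of values examined, 6 held such a cell, and no set of KO NMK cells was among the 72. The limit used was one that chance passes in about 1 in 20 sets of normally distributed values. That rate does not apply here, because some sets are mostly 0, as for Hist1h3e and Hist1h3d in WT NMK cells. The sets also share cells and related genes, so the count of 6 is a description and is not set against chance.

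A KO MK library that the authors left out as an outlier, numbered 1, held 1354.9 TPM of Hist1h2bc, above the highest NMK value of 64.6 TPM.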

How the results depend on the processing

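Each alternative was computed for the class sums, the named members, the counts of called members and the count that follows Top2a. No called value reversed, though some values within their SD changed sign. Counts of called members moved most. The share over all genes under each alternative is not given, so the counts below are not set against a background. With all labelled libraries of the full table, 6 members were lower between KO MK and KO NMK cells, 5 higher between WT MK and WT NMK cells, and 0 higher and 2 lower between KO MK and WT MK cells. A pseudocount of 0.1 gave 4 lower in KO and 23 higher in WT MK against NMK cells. A pseudocount of 10 gave 4 higher in KO, 3 higher in WT and 1 higher between KO NMK and WT NMK cells, as did a filter at a mean of 10 TPM (4, 3 and 1). Ratios of mean TPM gave 26 lower in KO MK against KO NMK cells, 1 lower in WT, 5 higher in KO MK against WT MK cells, and 12 higher and 5 lower in KO NMK against WT NMK cells. Without cells of low housekeeping level, 8 were higher in KO NMK against WT NMK cells. Libraries without a title prefix gave 9 higher and 8 lower in KO MK against WT MK cells. Those with the prefix B1 gave 6 lower in KO MK against KO NMK cells, 29 lower in KO MK against WT MK cells and an H2A sum difference of -4.75, and no WT NMK cell carries that prefix. Counting the 5 alike WT MK libraries as 1 cell gave 0 higher in KO MK. Without the low-Pf4 KO MK cells, 8 were lower against KO NMK and 4 higher against WT MK cells. With only NMK cells of at least 10000 genes, 26 were lower in KO, 28 higher and 2 lower in WT, the WT H2B sum difference was 1.32, and 30 were higher and 5 lower between KO NMK and WT NMK cells. The members that follow Top2a were 9 with the DNA replication list and 30 at a limit of 0.3. The cause was not tested.

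Class sum differences no longer larger than their SD were H2B in WT MK against WT NMK cells (2.03, SD 2.75, full table) and H2A and H4 in KO MK against WT MK cells (-2.13, SD 2.18, and -1.43, SD 1.62, full table; -1.42, SD 1.84, and -0.89, SD 1.02, without a title prefix). By ratios of mean TPM the WT H2B difference was 2.14 (SD 2.40). Leaving out each cell in turn gave 8 to 16 higher and 9 to 16 lower in KO MK against KO NMK, 12 to 21 higher in WT MK against WT NMK, 1 to 3 higher and 16 to 20 lower in KO MK against WT MK, and 3 to 10 higher in KO NMK against WT NMK cells. The members that follow Top2a then numbered 15 to 20. No paired analysis was possible because the replicate labels name single cells and no test was made. TPM keeps no depth, so what depth limits is unknown.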

Other observations

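Among WT MK cells, the 5 libraries whose titles lack a prefix were very alike, with pairwise correlations of log2(TPM + 1) over all genes of 0.972 to 0.981, against 0.840 to 0.948 between KO MK libraries. Over the 1461 genes with a mean of at least 100 TPM in these 5 libraries, the median SD of log2(TPM + 1) was 0.20. All 8 clustered histone genes at that level were among the 22 most variable of the 1461. Hist1h1e ranked 1 (SD 2.48, 4.6 to 405.3 TPM), Hist1h2ao 3 (SD 2.32), Hist1h2ap 4 (SD 2.29), Hist1h2ae 5 (SD 2.24), Hist1h2ac 7 (SD 2.19), Hist1h2ag 8 (SD 2.05), Hist1h4d 11 (SD 1.45) and Hist1h2bc 22 (SD 1.02, 73.3 to 381.2 TPM). The H2A sum spanned 194 to 8394 TPM among them, a ratio of 43.3. Whether these libraries came from separate cells of one culture is not stated in the labels.

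Of the 13 labelled libraries left out of the smaller table, 4 were KO MK, 5 WT MK, 3 KO NMK and 1 WT NMK. Hist1h2bc was 3.1 to 12.4 TPM in the other 3 KO MK and 0 to 31.8 TPM in the 5 WT MK libraries. Their mean log2(TPM + 1) over 14 housekeeping genes was 3.50 to 8.48 in the 4 KO MK and 3.50 to 5.45 in the 5 WT MK libraries, against 9.32 to 9.91 in the MK libraries that were kept.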
